A study of Drosophila melanogaster with 40 samples.

Results

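The zygotic dorsoventral patterning genes examined here were 10 genes taken from a fixed list of names: *twi*, *sna*, *sog*, *rho*, *brk*, *ind*, *vnd*, *dpp*, *zen* and *tld*. All 10 were found by their FlyBase identifiers among the 17665 genes of the expression tables. The rule for the list used names, not measured values. However, these genes and the lists of other genes used below were chosen with earlier results of these data known. They were followed through 12 columns of RNA-seq values and through 6 peak lists, 4 of them for the DNA base N6-methyladenine (6mA) and 2 for DNA bound by the forkhead protein Jumu.

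These genes read the ventral-to-dorsal gradient of the transcription factor Dorsal in the early *Drosophila* embryo. High nuclear Dorsal switches on the mesoderm genes *twi* and *sna* on the ventral side, lower levels switch on *sog*, *rho*, *brk*, *vnd* and *ind* in the neuroectoderm, and Dorsal represses *dpp*, *zen* and *tld*, which are therefore limited to the dorsal side. All are well-known early products of zygotic genome activation, the stage at which the embryo starts to transcribe its own genome.

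RNA came from *jumu* M-,Z- embryos, which lack the maternal and the zygotic gene product, and from *jumu* M-,Z+ embryos, which lack the maternal product and were fathered by wild-type males, both against wild-type embryos at 3 h. Further pairs were M- DMAD against wild-type embryos at 3 h, *jumu* M-,Z+ against wild-type embryos at 0.75 h, and *jumu* mutant against wild-type ovaries, and a stage series held wild-type embryos of 3 ages, 0.75 h, 3 h and 6 h. The wild type was w1118 throughout, the *jumu* alleles *jumu*1 and *jumu*2 were made with CRISPR/Cas9, and DMAD, a 6mA demethylase listed as *Tet* in the annotation, was removed with the null alleles *DMAD*1 and *DMAD*2. The 6mA lists came from 6-h w1118 embryos in which DMAD had been knocked down by injected double-stranded RNA and from wild-type embryos of the same 3 ages. The Jumu lists came from genomic DNA of wild-type embryos aged 0.75 h or 6 h that was pulled down with tagged Jumu protein. Each RNA group had 2 libraries, yet the tables hold 1 FPKM (a fragment count scaled by transcript length and by library size) per gene and group, so neither a spread between replicates nor a test was available, and every difference below is a description of 2 values. A gene was called different where log2(FPKM + 1) differed by at least 1, which is 2-fold for well expressed genes and understates the change of weak ones, and where its FPKM was at least 1 in a group compared. The sequencing depth behind the FPKM values is unknown, and each peak list rests on 1 library.

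The genotypes were checked first. *jumu* RNA was at 55.5 FPKM in 3-h embryos labelled M-,Z- and at 103 FPKM in those labelled M-,Z+, against 71.8 FPKM in wild type, and at 68.9 FPKM in mutant ovaries against 68.0 FPKM in wild-type ovaries. *Tet* was at 3.41 FPKM in embryos labelled M- DMAD, against 1.49 FPKM in wild type, so its RNA was higher in the mutant than in the control. The genotypes are therefore used as labelled, and neither transcript level checks them. The ovary samples carry embryo as their tissue label, but all 14 yolk and eggshell genes passed the minimum FPKM there, with a summed level of 36490 FPKM in mutant and 75146 FPKM in wild-type ovaries, against 1.17 FPKM in 0.75-h embryos of the stage series.

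In the stage series, all 10 genes had less than 1 FPKM at 0.75 h and between 11.1 and 192 FPKM at 3 h, and all 10 were called higher at 3 h, where 24.6% of the 8832 genes compared were called higher and 28.6% lower. Their median difference was 5.46 in log2(FPKM + 1), against 0.23 over all genes compared, a value that quantile normalization shifted by -0.12 here and by -0.14 between 3 h and 6 h. Every one of the 10 stood at or above the 97.1th percentile of all differences. The 3 stages are separate tables, for which no common scaling is stated. Since the levels at 0.75 h were all under 1 FPKM, the size of these differences depends on very small values. In whole embryos, fewer cells expressing a gene and less RNA per cell cannot be told apart.

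The mesoderm genes had the highest levels at 3 h. *twi* (FBgn0003900, chromosome 2R from 22985374 to 23048325, plus strand, dm6), a helix-loop-helix activator that specifies mesoderm, had 0.193 FPKM in 0.75-h, 192 FPKM in 3-h and 20.1 FPKM in 6-h embryos. *sna* (FBgn0003448, chromosome 2L from 15476593 to 15478260, minus strand), a zinc finger repressor that keeps neuroectoderm genes off in the mesoderm, had 0.529 FPKM in 0.75-h, 146 FPKM in 3-h and 76.8 FPKM in 6-h embryos. Both genes thus peaked at 3 h, and only *twi* was called lower at 6 h than at 3 h, with a difference of -3.19 against -0.92 for *sna*.

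Among the neuroectoderm genes, *sog* (FBgn0003463, chromosome X from 15603283 to 15633434, minus strand), a secreted inhibitor of BMP ligands related to vertebrate Chordin, had 0.665 FPKM in 0.75-h, 137 FPKM in 3-h and 44.0 FPKM in 6-h embryos. *rho* (FBgn0004635, chromosome 3L from 1463811 to 1468944, plus strand), a membrane protease that releases the EGF receptor ligand Spitz, had 0.580 FPKM in 0.75-h, 40.8 FPKM in 3-h and 31.7 FPKM in 6-h embryos. *brk* (FBgn0024250, chromosome X from 7307939 to 7311132, plus strand), a repressor of Dpp target genes, had 0.299 FPKM in 0.75-h, 39.0 FPKM in 3-h and 36.2 FPKM in 6-h embryos. *sog* was called lower at 6 h than at 3 h (-1.62), whereas *rho* and *brk* kept most of their 3-h level (-0.35 and -0.11).

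The homeodomain genes that mark columns of the neuroectoderm were the weakest of the 10 at 3 h in the stage series. *vnd* (FBgn0261930, chromosome X from 582121 to 598151, plus strand), of the ventral column, had 0.121 FPKM in 0.75-h, 18.4 FPKM in 3-h and 14.8 FPKM in 6-h embryos. *ind* (FBgn0025776, chromosome 3L from 15042799 to 15043924, minus strand), of the intermediate column, had 0.112 FPKM in 0.75-h, 11.1 FPKM in 3-h and 18.5 FPKM in 6-h embryos. *ind* was the only gene of the 10 with a higher level at 6 h than at 3 h, by 0.69, which did not reach 2-fold.

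The dorsal genes differed among themselves at 6 h. *zen* (FBgn0004053, chromosome 3R from 6752864 to 6754194, minus strand), a homeodomain activator needed for the amnioserosa, had 0.659 FPKM in 0.75-h, 134 FPKM in 3-h and 0.580 FPKM in 6-h embryos, back below its starting level. *tld* (FBgn0003719, chromosome 3R from 24749731 to 24753510, plus strand), a protease that cleaves Sog and frees the BMP ligand, had 0.148 FPKM in 0.75-h, 71.0 FPKM in 3-h and 23.9 FPKM in 6-h embryos. *dpp* (FBgn0000490, chromosome 2L from 2428372 to 2459823, plus strand), the BMP ligand itself, had 0.223 FPKM in 0.75-h, 29.0 FPKM in 3-h and 21.0 FPKM in 6-h embryos. From 3 h to 6 h the difference was -6.42 for *zen*, -1.53 for *tld* and -0.45 for *dpp*. In all, 4 of 10 genes were called lower at 6 h than at 3 h (*twi*, *sog*, *zen* and *tld*) and none higher, where 16.3% of 9576 genes were called lower and 24.4% higher.

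**Figure D1:**
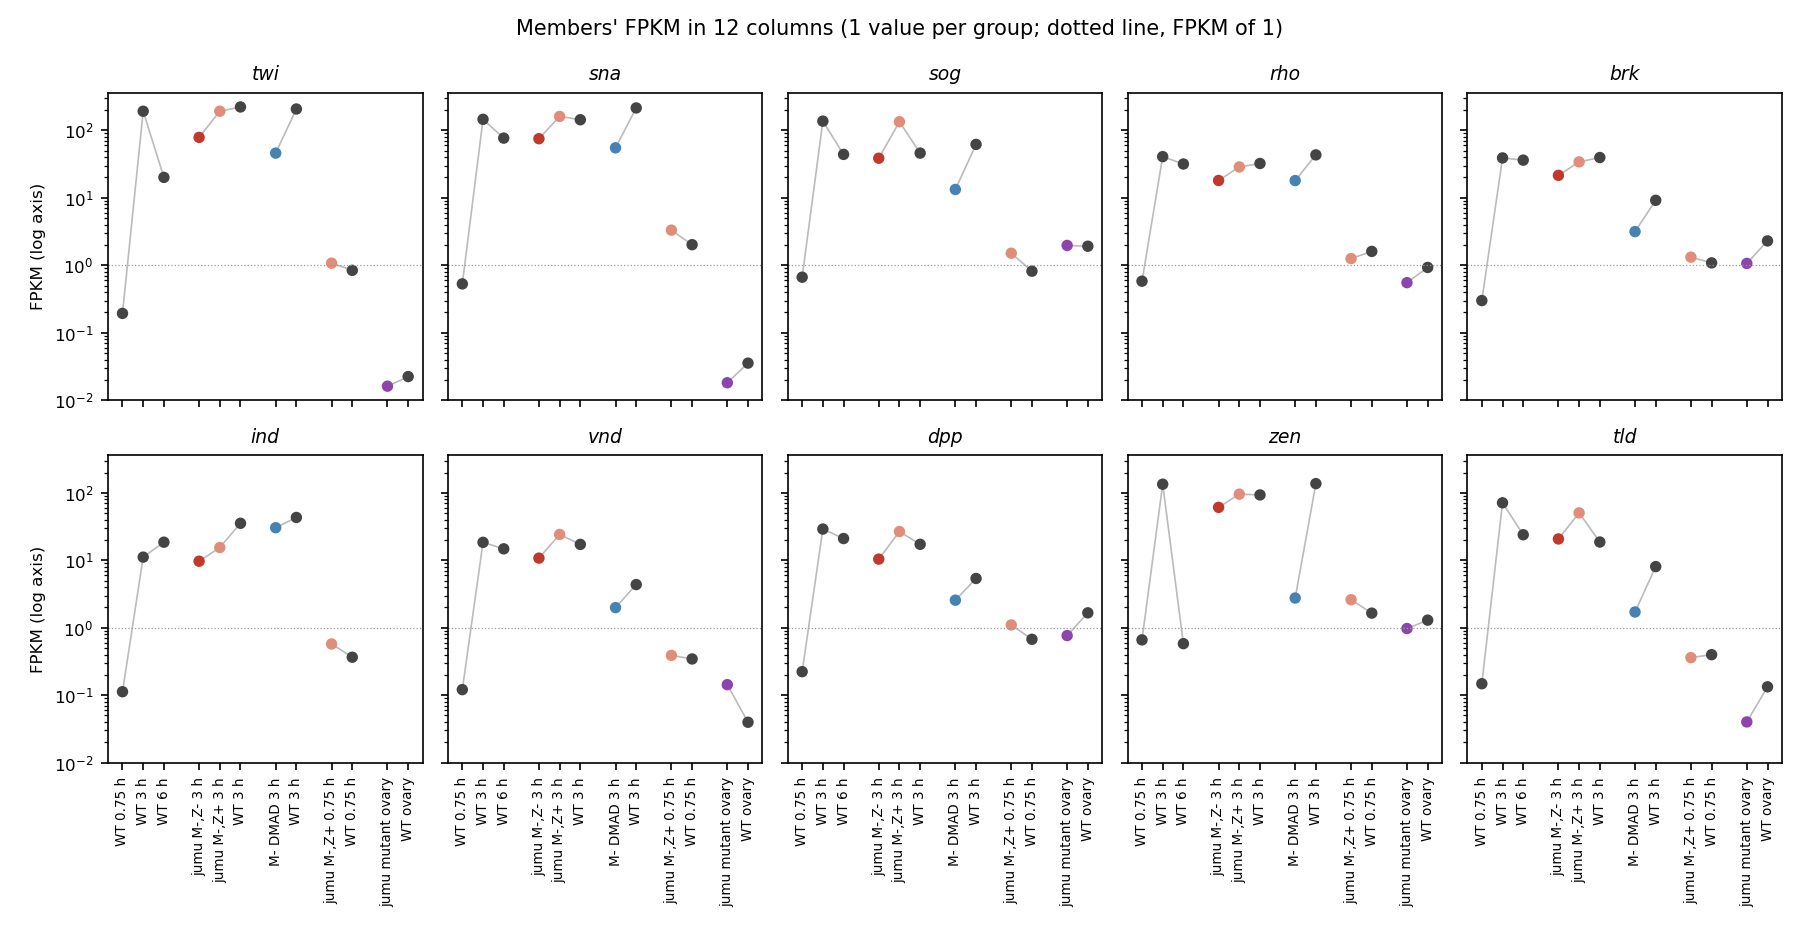
FPKM on a log axis of each of the 10 genes in 12 columns, 1 point per group with no error because each table holds 1 value per group; lines join groups of 1 comparison (stage series, *jumu* at 3 h, M- DMAD at 3 h, *jumu* at 0.75 h, ovary) and the dotted line marks 1 FPKM. All 10 genes are under 1 FPKM in 0.75-h wild type of the stage series and between 11.1 and 192 FPKM at 3 h, and *ind* has no point in ovary because it is not listed there.

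The 3 wild-type groups of 3-h embryos show how far these levels varied without a mutant. The stage and 3-h *jumu* series were sequenced on different instruments. *twi* was at 192, 222 and 207 FPKM in wild type of the stage, *jumu* and DMAD series, a ratio of 1.16 between the highest and the lowest. *rho*, *zen* and *sna* had ratios of 1.34, 1.47 and 1.5. The other 6 genes were less alike: the ratio was 2.98 for *sog*, 3.87 for *ind*, 4.23 for *vnd*, 4.31 for *brk*, 5.40 for *dpp* and 8.83 for *tld*, whose wild-type levels were 71.0, 18.6 and 8.04 FPKM in the stage, *jumu* and DMAD series. FPKM is a level per transcript length, so genes can be ranked within a column. *twi* and *sna* led in all 3 wild-type groups, in the order *twi*, *sna* in the stage and *jumu* series and *sna*, *twi* in the DMAD series, and their ranges over the 3 groups overlapped. *sog* overlapped with *zen* and with *tld*, but *zen* lay above *tld* in every group. *vnd*, *dpp* and *ind* took the last places in the stage series. In the *jumu* and DMAD series *vnd* was last, and *ind* stood above *tld*, *dpp* and *vnd*. The ranges of *vnd*, *dpp*, *ind*, *brk* and *tld* overlapped.

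At 3 h, 9 of 10 genes were lower in embryos labelled *jumu* M-,Z- than in wild type, and 2 of them, *twi* and *ind*, were called lower, while none was called higher. Over all 9828 genes compared, 20.7% were called lower and 18.6% higher, so the 2 called of 10 are no more than the share of all genes. The median difference was -0.74 for the 10 genes and -0.03 for all genes. *twi* was at 78.7 FPKM in M-,Z- embryos, against 222 FPKM in wild type, a difference of -1.49. *ind* was at 9.68 FPKM in M-,Z- embryos, against 35.3 FPKM in wild type, a difference of -1.77. The other lower genes lay between -0.25 (*sog*, 38.6 FPKM against 46.0 FPKM in wild type) and -0.93 (*sna*, 75.2 FPKM against 144 FPKM in wild type). *tld*, with 20.7 FPKM in M-,Z- embryos against 18.6 FPKM in wild type, was the exception. The number called lower was 6 after quantile normalization and 8 against the quantile-normalized 3-h wild type of the stage series, where *ind* was not called (-0.32) and *tld* was also lower (-2.01). Against the quantile-normalized 3-h wild type of the DMAD series 6 genes were called lower, beside 26.3% of all genes. There *brk* (0.37), *vnd* (0.34), *dpp* (0.05) and *tld* (0.49) were higher in M-,Z- embryos, so the common direction depended on the control.

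The *jumu* M-,Z+ comparison shares its wild type with that of M-,Z- embryos. In embryos labelled *jumu* M-,Z+, no common direction was seen: 6 genes were higher and 4 lower than in wild type, with a median of 0.10 against 0.04 over all genes. *sog* was at 134 FPKM in M-,Z+ embryos against 46.0 FPKM in wild type (1.53), and *tld* at 50.4 FPKM against 18.6 FPKM (1.39). These 2 genes were called higher and *ind*, at 15.4 FPKM in M-,Z+ embryos against 35.3 FPKM in wild type (-1.14), was called lower, where 11.5% of 10019 genes were called in each direction. All 3 are among the 6 genes whose wild-type level was less alike between series, and against the quantile-normalized 3-h wild type of the stage series none of them held: *sog* differed by 0.04, *ind* by 0.28 and *tld* by -0.53. All 3 calls held under quantile normalization of the *jumu* series itself (*sog* 1.23, *tld* 1.11, *ind* -1.39) and against the quantile-normalized 3-h wild type of the DMAD series (*sog* 1.49, *tld* 2.08, *ind* -1.78). *ind* was the only 1 of the 10 called in the same direction in both mutants, in which 8.73% of 10116 genes were called lower and 8.06% higher in each.

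The comparison of the mutants with each other needs no wild type and gave the most uniform result in the *jumu* series. All 10 genes were lower in M-,Z- than in M-,Z+ embryos, by 0.62 to 1.77 with a median of -1.09, against 0.04 over all genes, of which 47.5% were lower. *sog* differed most, with 38.6 FPKM in M-,Z- embryos against 134 FPKM in M-,Z+ embryos (-1.77). *dpp* was at 10.4 FPKM in M-,Z- embryos against 26.7 FPKM in M-,Z+ embryos (-1.28). *twi* was at 78.7 FPKM in M-,Z- embryos against 192 FPKM in M-,Z+ embryos (-1.28). *tld* (-1.24), *vnd* (-1.10) and *sna* (-1.09) were also past 2-fold, while *rho*, *brk*, *ind* and *zen* lay between -0.62 and -0.64. Thus 6 of 10 genes were called lower and none higher, where 13.2% of 9075 genes were called lower and 5.12% higher. All 10 stayed lower after quantile normalization, with a median of -1.22, while upward calls over all genes made up 28.0% of calls as deposited and 42.2% after it.

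**Figure D2:**
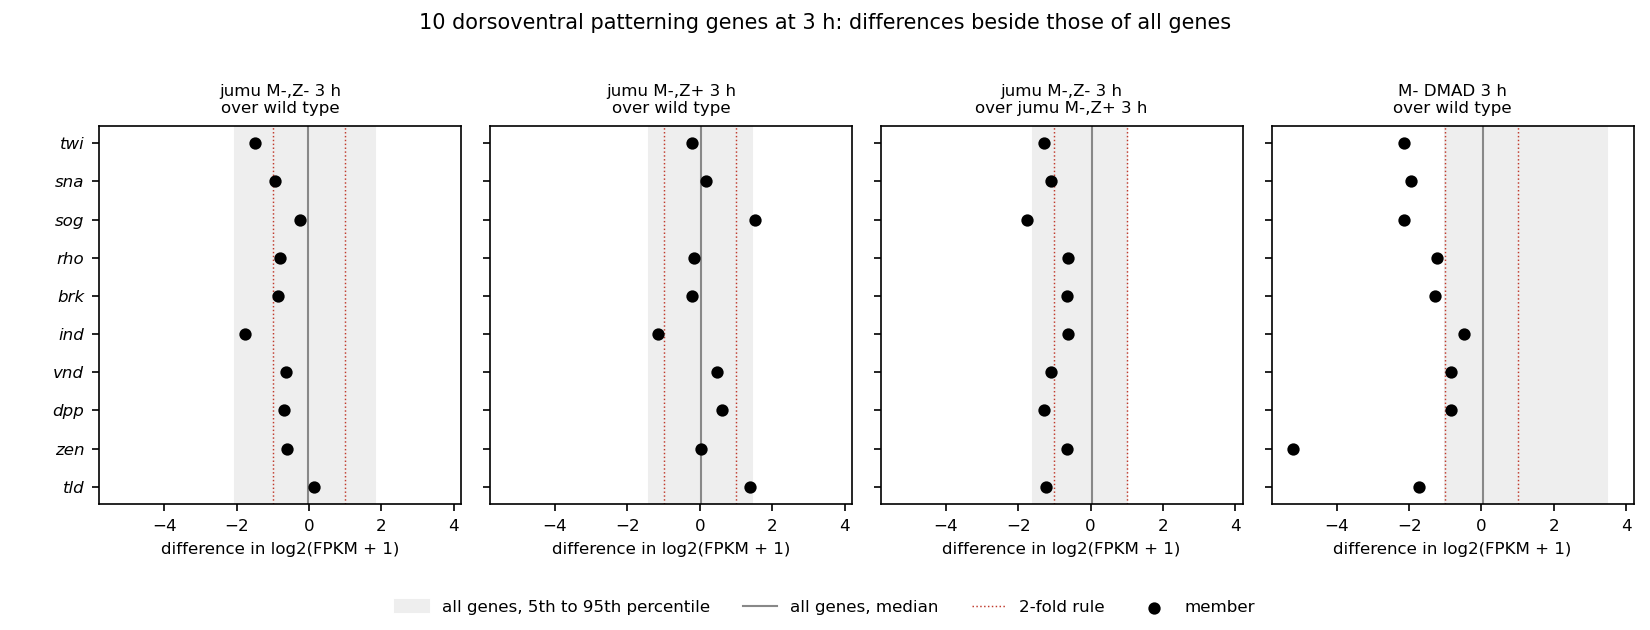
Difference in log2(FPKM + 1) of the 10 genes (points, 1 value each with no error) in 4 comparisons at 3 h: *jumu* M-,Z- over wild type, *jumu* M-,Z+ over wild type, *jumu* M-,Z- over *jumu* M-,Z+ and M- DMAD over wild type. Grey bands span the 5th to 95th percentile of all genes compared, the grey line is their median and dotted lines mark differences of 1 in either direction; all 10 points lie left of the median in the comparison of the *jumu* mutants and in M- DMAD, where *zen* is at -5.20.

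Fixed lists of other genes of the pathway were counted in the same way in the *jumu* mutants, to be read beside the shares of all genes given above (20.7% lower and 18.6% higher in M-,Z-, 11.5% each way in M-,Z+ embryos). Of 15 other dorsal ectoderm genes (*Doc1*, *tup*, *pnr* and others), 7 were called lower and none higher in M-,Z- embryos than in wild type, with a summed level of 218 FPKM in M-,Z- embryos against 411 FPKM in wild type. Of 12 other genes of the neuroectoderm and mesectoderm, 4 were called lower and none higher, and of 10 other mesoderm and gastrulation genes 1 was called lower (*tin*) and 1 higher (*fog*). Of 8 BMP receptors and transducers that passed the minimum, 4 were called higher and none lower in each mutant: the receptors *tkv*, *put* and *sax* in both, *Mad* in M-,Z- and *wit* in M-,Z+ embryos. In M-,Z- embryos *gbb* (-0.50), *shn* (-0.28) and *Dad* (-0.16) had lower values and were not called. *put*, for example, was at 116 FPKM in M-,Z- and 112 FPKM in M-,Z+ embryos, against 26.9 FPKM in wild type. The maternal dorsal group genes, which build the Dorsal gradient upstream of the 10 genes, were mostly higher: 9 of 14 were called higher and 1 (*pip*) lower in M-,Z- embryos, and 7 higher and none lower in M-,Z+ embryos. *Tl*, the receptor of that pathway, was at 146 FPKM in M-,Z- and 201 FPKM in M-,Z+ embryos, against 20.3 FPKM in wild type. In the 3-h wild type of the stage and DMAD series, *Tl* was at 212 and 24.2 FPKM and *put* at 98.8 and 15.4 FPKM. The maternal dorsal group list summed to 1028 and 704 FPKM there and the BMP list to 401 and 249 FPKM. The size of these differences from wild type thus depended on the control. Between the mutants, 5 of 15 dorsal ectoderm and 4 of 12 neuroectoderm and mesectoderm genes were called lower in M-,Z- than in M-,Z+ embryos. So were 4 of 10 mesoderm genes and 2 of 8 BMP genes. None of these 4 lists had a gene called higher, beside 13.2% lower and 5.12% higher over all genes. Of 14 maternal dorsal group genes, 5 were called higher and 1 lower.

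Markers of developmental stage moved too. Of 9 maternal transcripts that are cleared in early embryos, 8 were called higher in M-,Z- embryos than in wild type and none lower, and 4 were called higher in M-,Z+ embryos. Between the mutants, 6 of the 9 were called higher in M-,Z- than in M-,Z+ embryos and none lower. Beside these higher transcripts, 9 of the 10 patterning genes were lower in M-,Z- embryos than in wild type. In M-,Z+ embryos 6 of the 10 were higher and 4 lower. The summed level of the 9 transcripts was 1395 FPKM in M-,Z- and 562 FPKM in M-,Z+ embryos, against 276 FPKM in wild type. *smg* was at 624 FPKM in M-,Z- and 230 FPKM in M-,Z+ embryos, against 26.7 FPKM in wild type. In the 3-h wild type of the stage and DMAD series *smg* was at 130 and 33.5 FPKM, and the 9 transcripts summed to 390 and 583 FPKM. The M-,Z+ sum thus lay within the range of the 3-h wild-type groups and the M-,Z- sum above it. In the stage series the 9 transcripts summed to 2272 FPKM at 0.75 h, to 390 FPKM at 3 h and to 340 FPKM at 6 h. The 8 early zygotic genes are transcribed before and during cellularization. They summed to 3315 FPKM in M-,Z- and 4806 FPKM in M-,Z+ embryos, against 5572 FPKM in wild type. Of these 8 genes 1 (*nullo*) was called higher in both mutants and none was called lower in either. The part of developmental timing in the differences of the 10 genes was not tested.

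In embryos labelled M- DMAD all 10 genes were lower than in wild type at 3 h, 7 were called lower and none higher. Of all 8961 genes compared, only 5.07% were called lower and 23.0% higher. The median difference was -1.52 for the 10 genes and 0.04 for all genes, and after quantile normalization it was -1.88 against -0.29, with all 10 still lower. The split of calls over all genes depended on the scaling: 82.0% of calls were upward as deposited and 49.5% after quantile normalization.

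*zen* differed most, with 2.75 FPKM in M- DMAD embryos against 137 FPKM in wild type, a 49.7-fold lower level and a difference of -5.20, at the 0.167th percentile of all genes. *twi* was at 46.0 FPKM in M- DMAD embryos against 207 FPKM in wild type (-2.15), and *sna* at 55.1 FPKM against 215 FPKM (-1.95). *sog* was at 13.3 FPKM in M- DMAD embryos against 61.9 FPKM in wild type (-2.14). The mesoderm genes and the BMP inhibitor were thus 3.90- to 4.65-fold lower in M- DMAD embryos. *tld* was at 1.71 FPKM in M- DMAD embryos against 8.04 FPKM in wild type (-1.74), *brk* at 3.16 FPKM against 9.18 FPKM (-1.29) and *rho* at 18.0 FPKM against 43.3 FPKM (-1.22). *vnd* (1.98 FPKM against 4.36 FPKM in wild type) and *dpp* (2.56 FPKM against 5.37 FPKM) differed by -0.84 each and were not called. *ind* differed least, at 30.4 FPKM in M- DMAD embryos against 43.1 FPKM in wild type (-0.49), and was 1.37 higher when set against the quantile-normalized 3-h wild type of the stage series.

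These differences ran alongside those between 3 h and 6 h in wild type. Across the 10 genes, the difference in M- DMAD embryos and the wild-type difference of 6 h over 3 h, which come from separate tables, had a Pearson r of 0.961 and a Spearman rho of 0.879. Without *zen* the values were 0.846 and 0.833 over 9 genes. The points share the log2(FPKM + 1) scale, and genes are not independent replicates, so this is a description with no test. The same wild-type difference had a Pearson r of -0.18 and a Spearman rho of -0.43 with the difference in *jumu* M-,Z- embryos.

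**Figure D3:**
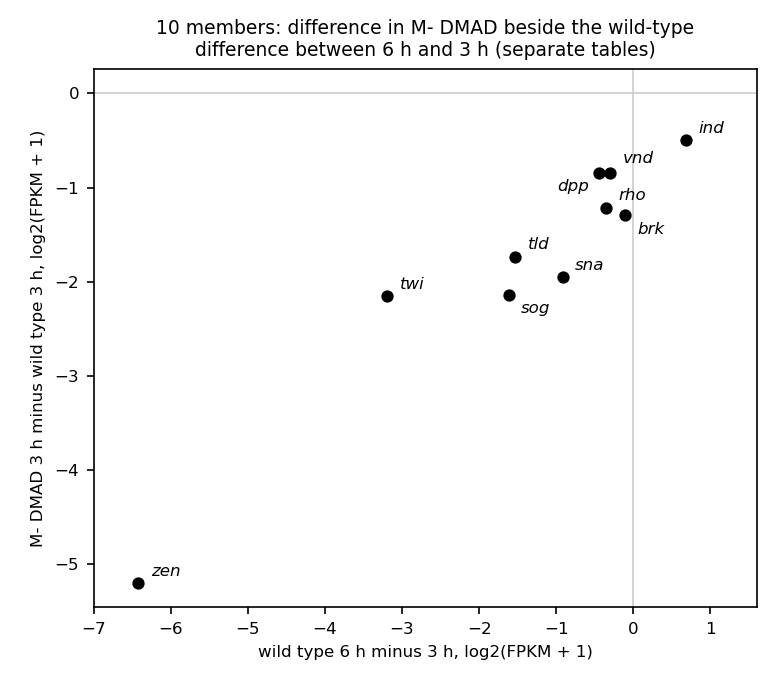
Difference in log2(FPKM + 1) of M- DMAD over wild type at 3 h (vertical axis) beside that of wild type at 6 h over 3 h in the stage series (horizontal axis), 1 point per gene with no error. *zen* is lowest on both axes (-5.20 and -6.42) and *ind* highest on both (-0.49 and 0.69).

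Early zygotic genes, used as stage markers, moved with the 10 genes in the same embryos. All 8 were called lower in M- DMAD embryos, with a sum of 334 FPKM against 9157 FPKM in wild type, and *bnk*, an actin regulator of cellularization, was at 3.11 FPKM in M- DMAD embryos against 1160 FPKM in wild type. All 8 were also called lower at 6 h than at 3 h in wild type of the stage series, with sums of 9008 FPKM at 3 h and 98.6 FPKM at 6 h. The 9 maternal transcripts summed to 567 FPKM in M- DMAD embryos against 583 FPKM in wild type, and 1 of them (*gnu*) was called higher. Of the other dorsal ectoderm genes 4 of 14 (*tsg*, *scw*, *srw* and *zen2*) were called lower and 2 (*peb* and *Ance*) higher. Among other neuroectoderm and mesectoderm genes 1 of 12 (*sc*) was called lower and none higher. Of 10 other mesoderm and gastrulation genes, *Mef2* (1.17) and *zfh1* (1.48) were called higher and *mthl1* (-1.39) lower. Of 14 maternal dorsal group genes, *pip* (5.14), *wbl* (3.02), *dl* (2.03) and *grk* (1.26) were called higher and none lower, and of 7 BMP receptors and transducers *Dad* (1.05) was called higher and none lower, beside 5.07% lower and 23.0% higher over all genes. *scw*, which encodes a BMP ligand that acts with Dpp, was at 0.880 FPKM in M- DMAD embryos against 290 FPKM in wild type. Between 3 h and 6 h in wild type, *tsg*, *scw*, *srw* and *zen2* were also called lower, but 7 of 15 dorsal ectoderm genes were called higher. So were 9 of 12 neuroectoderm and mesectoderm and 4 of 10 mesoderm and gastrulation genes, with none lower, beside 24.4% higher and 16.3% lower over all genes. Of the genes in these lists called higher at 6 h, only *peb*, *Ance*, *Mef2* and *zfh1* were called higher in M- DMAD embryos. The part of developmental timing in the lower levels of the 10 genes was not tested.

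At 0.75 h, before most zygotic transcription, *jumu* M-,Z+ and wild-type embryos were set side by side. Here 7 of 10 genes reached 1 FPKM in a group and none was called, where 1.36% of 7703 genes were called higher and 3.75% lower. Upward calls were 26.6% of all calls as deposited and 37.2% after quantile normalization. Of these 7, *rho* alone was lower in M-,Z+ embryos. *sna* was at 3.31 FPKM in M-,Z+ embryos against 2.02 FPKM in wild type, the largest difference at 0.52. The highest levels at 0.75 h were under 4 FPKM in both groups.

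In ovaries 4 of 10 genes passed the minimum (*sog*, *brk*, *dpp* and *zen*), *ind* was not listed, and none was called, where 1.57% of 7918 genes were called higher and 5.08% lower. Upward calls were 23.6% of all calls as deposited and 40.2% after quantile normalization. *brk* was at 1.06 FPKM in *jumu* mutant ovaries against 2.29 FPKM in wild-type ovaries (-0.67), and *dpp* at 0.763 FPKM against 1.66 FPKM (-0.59). Both *dpp* and *brk* act in the follicle cells around the oocyte. *sog* was at 1.97 FPKM in mutant and 1.91 FPKM in wild-type ovaries. *sna* was at 0.0181 FPKM in mutant and 0.0354 FPKM in wild-type ovaries, and *twi* was lower still in both.

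The genes whose levels ran most like the mean of the 10, by Pearson r of log2(FPKM + 1) over 12 columns among 7660 genes, were *kni* (0.994), *gt* (0.994), *CG15628* (0.992), *croc* (0.989) and *CG8654* (0.986). The 10 genes were low in the 0.75-h and ovary columns and higher in the others, so this r reflects that contrast along with any difference between genotypes. *kni* and *gt* are gap genes of the anterior-posterior axis. *kni* was at 59.5 FPKM in *jumu* M-,Z- and 108 FPKM in M-,Z+ embryos, against 122 FPKM in wild type, and at 16.6 FPKM in M- DMAD embryos against 55.6 FPKM in wild type. *gt* was at 14.2 FPKM in M- DMAD embryos against 78.6 FPKM in wild type. Taken singly, *twi* ran most like *danr* (0.994), *sna* like *D* (0.995), *tld* like *Ptr* (0.998), *vnd* like *CG43163* (0.995), *dpp* like *CG30015* (0.995) and *zen* like *bnk* (0.984). Of the 10, *zen* and *ind* followed the mean least, with an r of 0.846 for *zen* and of 0.863 for *ind* over the 10 columns that list it.

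6mA peaks and Jumu peaks were assigned to a gene where the centre of the peak lay inside it or within 1 kb. At 0.75 h, 5 of 10 genes had a 6mA peak (*twi*, *sog*, *rho*, *brk* and *dpp*), at 3 h 4 (*twi*, *sog*, *rho* and *brk*) and at 6 h 3 (*twi*, *sog* and *rho*), where 22.0%, 6.89% and 4.47% of 18358 annotated genes had 1. In 6-h DMAD knockdown embryos 4 genes had a 6mA peak (*sog*, *rho*, *brk* and *dpp*), where 14.1% of genes had 1. Jumu peaks marked *rho* and *brk* at 0.75 h, where 4.31% of genes were marked, and *sog* and *rho* at 6 h, where 1.79% were. Gene length enters these counts: at 0.75 h, 77.0% of genes of at least 10000 bp had a 6mA peak and 15.1% of shorter genes. Of the 4 long genes among the 10, 3 were marked at 0.75 h (*twi*, *sog* and *dpp* but not *vnd*), and of the 6 short ones 2 (*rho* and *brk*). *sna*, *zen* and *tld*, all short, had no peak within 10 kb in any of the 6 lists.

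The peaks within 1 kb of the 10 genes merged into 16 regions, of which 15 were in the 0.75-h wild-type 6mA list. Of these 15, 5 were also found at 3 h, 4 at 6 h and 10 in 6-h DMAD knockdown embryos, and 7 of those 10 were not found in 6-h wild type. The lists differ in length, with 4363 peaks at 3 h, 2447 at 6 h and 8367 in DMAD knockdown embryos. The share of all 0.75-h peaks found again in each list was not taken. Whether these counts set the 10 genes apart from other peaks was therefore not tested. By the annotation, the 15 peaks at 0.75 h comprised 7 in introns, 7 in 3′ UTRs and 1 in a 5′ UTR, and none was centred in a coding exon or outside the gene. Peak scores are 10 times the −log10 of the q value from the peak caller, and they grow with the depth of a library, so they are ranked within a list below.

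*sog* was the most heavily marked of the 10. It held 7 peaks at 0.75 h, a number reached by 2.15% of genes, 2 at 3 h and 2 at 6 h. In DMAD knockdown embryos at 6 h it held 7, 0.991% of genes having as many, and it held 1 Jumu peak at 6 h. Both shares are over all 18358 genes, of which 16315 are under 10000 bp, while *sog* spans 30152 bp. They were not adjusted for gene length. No Jumu peak lay in *sog* at 0.75 h. Of its 7 peaks of 0.75 h, 4 were in neither later wild-type list but were found in the longer list of DMAD knockdown embryos. Among these 4 was the strongest *sog* peak of 0.75 h, at chrX:15630454-15630727, with a score of 710 at 0.75 h and 72 in DMAD knockdown embryos. The count of 4 has no share of all peaks beside it either. The *sog* peak at chrX:15613610-15613833 was found in DMAD knockdown embryos alone, with a score of 114.

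Intronic peaks of *sog* and *dpp* are printed as marked DNA of these genes outside any exon. Each is the forward strand of dm6, 5′ to 3′, read from the RefSeq genome of that assembly, and capitals mark perfect tandem runs of at least 12 bases with a repeat unit of 1 to 6 bases. The first 3 are the strongest 0.75-h *sog* peak, a further 0.75-h *sog* peak that was also found in DMAD knockdown embryos, and the *sog* peak of DMAD knockdown embryos alone. The last, on chromosome arm 2L, is the *dpp* peak that was found at 0.75 h alone, with a score of 91.
*sog*, chrX:15630454-15630727: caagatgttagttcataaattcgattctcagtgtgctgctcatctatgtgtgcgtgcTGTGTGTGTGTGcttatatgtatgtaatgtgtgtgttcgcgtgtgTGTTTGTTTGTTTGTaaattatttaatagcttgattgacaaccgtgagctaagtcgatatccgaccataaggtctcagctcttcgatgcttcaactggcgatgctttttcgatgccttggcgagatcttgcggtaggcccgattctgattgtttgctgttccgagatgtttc
*sog*, chrX:15622384-15622647: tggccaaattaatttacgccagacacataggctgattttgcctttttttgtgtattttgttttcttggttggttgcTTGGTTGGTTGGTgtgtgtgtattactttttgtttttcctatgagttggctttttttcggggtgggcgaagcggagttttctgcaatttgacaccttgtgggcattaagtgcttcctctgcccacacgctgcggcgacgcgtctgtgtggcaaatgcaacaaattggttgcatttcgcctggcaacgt
*sog*, chrX:15613610-15613833: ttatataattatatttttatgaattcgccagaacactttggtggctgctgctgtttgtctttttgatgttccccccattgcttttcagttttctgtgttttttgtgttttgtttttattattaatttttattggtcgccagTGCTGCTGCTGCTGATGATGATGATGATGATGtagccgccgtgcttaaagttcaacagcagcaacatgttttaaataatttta
*dpp*, chr2L:2442295-2442463: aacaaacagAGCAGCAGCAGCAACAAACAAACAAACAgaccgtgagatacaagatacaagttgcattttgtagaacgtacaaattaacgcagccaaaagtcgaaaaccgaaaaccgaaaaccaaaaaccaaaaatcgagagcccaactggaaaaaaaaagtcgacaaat

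Each of the 4 sequences holds at least 1 tandem run, and no unit is shared by all of them. The strongest 0.75-h *sog* peak has a TG run and a run with a unit of 4. Over the central 200 bases of the peaks within 1 kb of the 10 genes, 13 of 15 held a tandem run at 0.75 h, 4 of 5 at 3 h, 3 of 4 at 6 h and 10 of 11 in DMAD knockdown embryos, beside 54.0%, 51.6%, 47.3% and 52.6% of all peaks of the same lists and 27.8% of 13708 genome windows of 200 bases. Runs of CA or TG were in 6 of 15 of these peaks at 0.75 h, beside 21.0% of all peaks of the list and 1.37% of the genome windows. The peaks are few and several share a gene, so these shares were not compared by a test.

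*rho* and *brk* were marked at their 3′ ends by both kinds of peak. In *rho*, the region from 1467978 to 1468539 of chromosome 3L, in the 3′ UTR, was in all 6 lists. Its wild-type 6mA score was 435 in 0.75-h, 70 in 3-h and 41 in 6-h embryos, which is the 79.7th, 40.2th and 8.99th percentile, and 427 in DMAD knockdown embryos at 6 h, the 78.6th percentile. Its Jumu score was 112 at 0.75 h and 41 at 6 h. The lists differ in length (17528, 4363 and 2447 peaks in wild type at the 3 ages), so these ranks describe each list and not a change of the peak. Its 24-base CA/TG run lay in the central 200 bases in 5 of the 6 lists.

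In *brk*, a gene with a single exon, the region from 7310448 to 7310800 of chromosome X, over the end of the coding sequence and the start of the 3′ UTR, scored 1136 at 0.75 h and 208 at 3 h. Those are the 93.0th and 78.5th percentile, and the first was the highest 6mA score of the 10 genes at 0.75 h. It scored 205 in DMAD knockdown embryos and no peak was called there in 6-h wild type. Its Jumu score was 192 at 0.75 h, and it held a CA/TG run of 33 bases in every list. Other genes also lie over these regions (*Ptp61F* over the end of *rho*, and *CG1677* and *lncRNA:CR44357* over *brk*), so the assignment of the peaks and of RNA-seq fragments there to 1 gene is uncertain. Other genes also touch exons of *twi* (*CG9897* and an antisense RNA), *ind* (*Sytbeta*) and *vnd* (*spdi*), and whether the counting used strand is not given in the sources used here.

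The *twi* peaks lie in the long first intron of transcript *twi-RC*, which alone makes the gene 62952 bases long. Their centres were 8477, 16009 and 20651 bases from the start of that transcript at 0.75 h, far from the starts of the short transcripts *twi-RA* and *twi-RB*. Only the first recurred, with a score of 179 in the 0.75-h, 29 in the 3-h and 57 in the 6-h list, and none was found in DMAD knockdown embryos. That peak lies within *CG9896* as well, so its assignment to *twi* is uncertain. With *twi* taken as its short transcripts alone, an alternative chosen after the data had been seen, it had no peak and 4 of the 10 genes were marked at 0.75 h, 3 at 3 h and 2 at 6 h.

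*dpp* had a peak in its 3′ UTR, from 2459230 to 2459481 of chromosome 2L, with scores of 201 at 0.75 h and 154 in DMAD knockdown embryos and no peak in wild type at 3 or 6 h. *vnd* and *ind* had none within 1 kb. For *vnd*, a 6mA peak 5069 bases upstream scored 1172 at 0.75 h, the 93.3th percentile, but it lies within the neighbouring gene *Appl*. For *ind*, a peak 3600 bases upstream, within *Sytbeta*, scored 74 at 0.75 h and 183 in DMAD knockdown embryos.

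At the starts of the 10 genes, 2 sequence motifs were searched on both strands from 250 bases before to 50 bases after each transcript start. The heptamer CAGGTAG, bound by the zygotic activator Zelda, was found once before *sna* and once before transcript *dpp-RC*, centred 180 and 11 bases upstream of the start, and in none of the other windows. Over 13968 protein-coding genes, with 1 window each at the start of the gene's span, 1.64% held it, and by that count *sna* was the only one of the 10 that did. GTAAACA, a core bound by forkhead proteins, was in no window of the 10 genes, beside 9.19% of the windows of all protein-coding genes. Neither heptamer was in the central 200 bases of a peak within 1 kb of the 10 genes. Over all peaks, CAGGTAG was in 0.246% to 1.1% and GTAAACA in 1.97% to 3.89%, depending on the list. At such shares, their absence from the few peaks of the 10 genes tells little. The heptamers found are letters in a window, not sites shown to be bound. The 250 bases before the 2 starts are printed 5′ to 3′ on the gene's own strand, with the heptamer in capitals.
*sna*, chr2L:15478261-15478510, minus strand: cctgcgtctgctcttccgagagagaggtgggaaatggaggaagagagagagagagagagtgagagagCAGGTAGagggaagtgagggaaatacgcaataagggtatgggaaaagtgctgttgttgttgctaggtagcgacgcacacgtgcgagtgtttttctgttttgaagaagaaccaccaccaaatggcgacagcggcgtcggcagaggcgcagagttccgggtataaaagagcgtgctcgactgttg
*dpp-RC*, chr2L:2450979-2451228, plus strand: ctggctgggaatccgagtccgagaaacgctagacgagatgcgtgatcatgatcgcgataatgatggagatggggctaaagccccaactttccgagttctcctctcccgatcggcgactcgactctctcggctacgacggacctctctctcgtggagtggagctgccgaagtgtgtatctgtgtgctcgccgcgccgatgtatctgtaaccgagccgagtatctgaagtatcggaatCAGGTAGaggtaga
The genes with the heptamer did not stand apart in their RNA values: in M- DMAD embryos *sna* differed by -1.95 and *dpp* by -0.84 from wild type, within the range of the other 8 genes.

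Marked and unmarked genes also overlapped in their RNA values. In M- DMAD embryos the 5 genes with a 0.75-h 6mA peak differed from wild type by -2.15 (*twi*), -2.14 (*sog*), -1.29 (*brk*), -1.22 (*rho*) and -0.84 (*dpp*). The 5 without differed by -5.20 (*zen*), -1.95 (*sna*), -1.74 (*tld*), -0.84 (*vnd*) and -0.49 (*ind*). Between *jumu* M-,Z- and M-,Z+ embryos the marked genes ranged from -1.77 (*sog*) to -0.64 (*rho*) and the unmarked ones from -1.24 (*tld*) to -0.62 (*ind*), so the ranges overlapped and the 3 lowest values (*sog*, *dpp* and *twi*) were of marked genes. *rho* and *brk*, the genes with a Jumu peak at 0.75 h, differed by -0.80 and -0.85 between M-,Z- embryos and wild type, near the median of the 10 genes.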

How the data were processed

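The authors removed ribosomal RNA reads with Bowtie2, mapped the rest with STAR to dm6 and deposited an FPKM per gene and group from Cuffdiff over 2 libraries (7 tables, 12 columns). They mapped DNA reads with Bowtie2, called peaks with MACS2 against IgG at a q of 0.05 and deposited peak positions with a score that is 10 times the −log10 of q, 1 library per list. RNA-seq of DMAD knockdown and of zelda overexpression was not analysed here. From these, log2(FPKM + 1) differences were taken for genes that reached 1 FPKM in either group, and a difference of at least 1 was called. They were taken within a table, except between stages and against the wild type of another series, where the 2 groups came from separate tables. No test was possible with 1 value per group. Peaks were placed on Ensembl genes without transposon insertions, and sequences and motifs were read from the RefSeq Release 6 genome. All 10 genes are named, and like genes by the highest Pearson r among genes that reached 5 FPKM in any column. The genes and lists were chosen with earlier results of these data known. Calculations used Python 3.11.15, numpy 2.4.6 and pandas 2.3.3 and were tested on simulated data. Alternatives were the pseudocount, the filter, the fold, quantile normalization, other wild-type controls, a stricter q and other gene windows. The values of 1 further peak region are not reported here.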

Additional observations from a re-analysis of the deposited data

How the results depend on the processing

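Of the recomputed differences of the 10 genes, 149 kept direction and call, 12 changed sign without being called under either setting, 24 gained a call, 2 lost it and 5 reversed with a call under 1 of the settings, and 107 counts of genes stayed within 1.5 times and 13 moved. At 1.5-fold, 1 gene was called higher at 6 h than at 3 h in wild type, 8 lower in *jumu* M-,Z- embryos than in wild type, 10 lower in M-,Z- than in M-,Z+ embryos and 2 lower in *jumu* mutant ovaries. A pseudocount of 0.1 also called 2 genes lower in ovaries, beside 7.98% of all genes. Quantile normalization called 6 genes lower in M-,Z- embryos, beside 15.4% of all genes. With the quantile-normalized 3-h wild type of the DMAD series as control, 6 were called lower in M-,Z- embryos (26.3% of all genes), with 4 of the 10 above wild type. In M-,Z+ embryos 5 were called higher with that control (26.3% of all genes), and *brk* reversed to 1.26. With that of the stage series, 8 were lower in M-,Z- embryos, 0 were higher and 0 lower in M-,Z+ embryos, and 1 was higher in M- DMAD embryos. The reversed differences with the stage-series control were 0.28 (*ind*) and -0.53 (*tld*) in M-,Z+, -2.01 (*tld*) in M-,Z- and 1.37 (*ind*) in M- DMAD embryos. At a q below 1e-05, 1 gene kept a Jumu peak at 6 h. The cause of these changes was not tested. No paired analysis was possible because each group has 1 FPKM per gene, which also meant that leaving out a replicate could not be run. RNA depth is unknown, which limits the low levels most.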
